A study of Mus musculus with 16 samples.

Results

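Interferon-stimulated genes are the genes that cells switch on after an interferon binds its receptor. A list of 37 mouse symbols was taken, and the rows of the deposited table with those symbols were followed through 6 gates of antigen-specific B cells. Of the 37, 36 were found among 23234 named genes. Ifi27 was not found under that symbol.

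The donor B cells were Bcl6-YFP(KI/+) B1-8hi(KI/+) on C57BL/6: they carry a knocked-in heavy chain that binds the hapten NP when paired with a lambda light chain, and a YFP reporter at Bcl6, a master factor of the germinal centre (GC). They were transferred into wild-type CD45.1+ recipients, which received NP-CGG in alum by intraperitoneal injection, and spleen cells of 9 recipients were pooled on day 10. Every group was sorted as CD45.2+ NP+ CD138- IgG1+, so all 16 libraries share the genotype, the immunisation, the day and these surface marks, and no unimmunised or interferon-treated group is among them. The LZ group (3 libraries) was CD38- CD86hi CXCR4lo, the light zone of the GC. Fraction 2 (2 libraries, labelled recycling-prone) and Fraction 3 (3 libraries, labelled as under selection) were LZ cells with high Bcl6-YFP that were CD69hi and CD69lo, respectively. Fractions 5, 6 and 7 were CD38+ GL7-. Fraction 5 (3 libraries, labelled pro-memory) was Bcl6-YFPhi Efnb1hi, Fraction 6 (2 libraries, pre-memory) was Bcl6-YFPlo Efnb1hi, and Fraction 7 (3 libraries, mature memory) was Bcl6-YFPlo Efnb1lo. The cells are thus transferred knock-in B cells and not the recipients' own, and they come from pooled animals.

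As background, type I interferons bind the IFNAR receptor, whose kinases phosphorylate STAT proteins, among them STAT2. These join IRF9 to form ISGF3, a complex that binds a DNA element called the ISRE in the promoters of its targets. The products of these genes sense viral nucleic acid, block translation, trap or degrade viral components and feed back on the pathway, and many are also expressed at a lower, tonic level without infection. In B cells the pathway is known for its crosstalk with nucleic acid sensing Toll-like receptors and for its part in antibody responses.

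Promoters of members were read from the RefSeq table (GRCm38.p6), which gives 250 bases before to 50 after each start. It held 32 windows for 27 of the 36 members. An ISRE-like motif, GAAA and GAAA with any 2 bases between them on either strand, was found in 12 of the 32 windows (37.5%), each of a different gene, and in 3.44% of all 32851 windows of that length. A GAS-like motif, TTC and GAA with any 3 bases between them, a palindromic element of the interferon-gamma response, was found in 7 of the 32 (21.9%) and in 8.30% of all windows. Adjacent ISRE-like matches can overlap. The windows of 5 members that recur below are shown as 160 bases before the start to 30 bases that begin at it, read along the gene's strand, with the ISRE-like matches in capitals. Ddx58 and Bst2 are shown because they were called in 6 and 4 comparisons, Ifit3 and Isg15 as textbook ISRE genes, and Pml because it changed most and has no match in its window. Trim25 and Samhd1 were also called in 4 comparisons each. They are not shown and have no match in their windows either.
Ddx58: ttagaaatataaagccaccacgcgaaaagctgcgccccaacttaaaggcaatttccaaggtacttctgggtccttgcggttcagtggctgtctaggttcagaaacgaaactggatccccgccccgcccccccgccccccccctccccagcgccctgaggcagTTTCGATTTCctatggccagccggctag
Bst2: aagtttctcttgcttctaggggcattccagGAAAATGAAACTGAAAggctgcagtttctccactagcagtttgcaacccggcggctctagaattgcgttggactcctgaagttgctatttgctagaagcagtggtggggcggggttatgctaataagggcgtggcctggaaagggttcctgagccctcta
Ifit3: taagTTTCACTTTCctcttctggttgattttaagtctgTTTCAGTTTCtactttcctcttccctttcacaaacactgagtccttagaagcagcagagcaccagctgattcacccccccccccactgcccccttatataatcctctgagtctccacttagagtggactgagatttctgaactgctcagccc
Isg15: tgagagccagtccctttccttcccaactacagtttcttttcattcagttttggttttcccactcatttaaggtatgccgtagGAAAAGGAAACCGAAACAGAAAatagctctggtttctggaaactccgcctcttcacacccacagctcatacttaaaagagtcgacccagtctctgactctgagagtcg
Pml: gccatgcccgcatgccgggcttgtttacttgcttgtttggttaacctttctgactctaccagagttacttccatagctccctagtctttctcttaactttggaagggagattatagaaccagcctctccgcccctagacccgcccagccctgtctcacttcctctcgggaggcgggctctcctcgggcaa
The stretches lie at chr4:40239796-40239985 (Ddx58, minus strand), chr8:71537443-71537632 (Bst2, minus), chr19:34583369-34583558 (Ifit3, plus), chr4:156200789-156200978 (Isg15, minus) and chr9:58249757-58249946 (Pml, minus). The match of Ddx58 began 2 bases past the start base, and the matches of Bst2 began 130 and 124 bases before the start. Those of Ifit3 began 156 and 122 bases before it, and the 3 overlapping matches of Isg15 began 78, 72 and 66 bases before it. A match is a description of letters in this window, and its absence says nothing of a factor.

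Values are FPKM (fragments scaled to transcript length and to the mapped fragments of the library) as deposited, so levels of different genes are compared per length. They summed to 416741 to 492578 per library, with 10133 to 10552 genes at 1 FPKM or more, and read depth is not known from them. Log2 changes were taken after adding 1 to each FPKM value, which shrinks those of low genes, and are given with their standard error (SE). A gene was called when its limma p, adjusted by Benjamini-Hochberg over all 11266 genes tested, was under 0.05. Whether same-group libraries were separate pools is not stated in the labels, so a p-value reflects the spread among those libraries alone, and that spread may be technical. In these sorted but bulk samples, fewer cells expressing a gene and less RNA per cell cannot be told apart. The 6 B cell markers were high in all libraries, with Ms4a1 between 492 and 864 FPKM and Pax5, the lowest, between 137 and 238.

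Samhd1, a nucleotide hydrolase that starves reverse transcription, lay between 134 and 219 FPKM and Sp100, a nuclear body protein, between 67.4 and 127. Of the 36 members, 30 reached 1 FPKM in at least 2 libraries and were tested. Oas2, Ifit2, Mx1 and Rtp4 met that filter only through the Fraction 7 libraries, so that they had to be high there. Their Fraction 7 values are given below as a description, with no test. The other 26 met the filter without Fraction 7. The 6 others, Ifih1, Ddx60, Ifit1, Mx2, Rsad2 and Ifi44, were not tested, and their highest value in any library was 1.17 FPKM. For each of these 6, the highest single value was in a Fraction 7 library. Of the 26 that passed without Fraction 7, 16 (61.5%) had their highest group mean in Fraction 7 and 16 (61.5%) their lowest in Fraction 2. Among all 10949 genes that passed in that way, 23.3% were highest in Fraction 7 and 20.7% lowest in Fraction 2. The heat map of the members by library shows this layout.

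**Figure D1:**
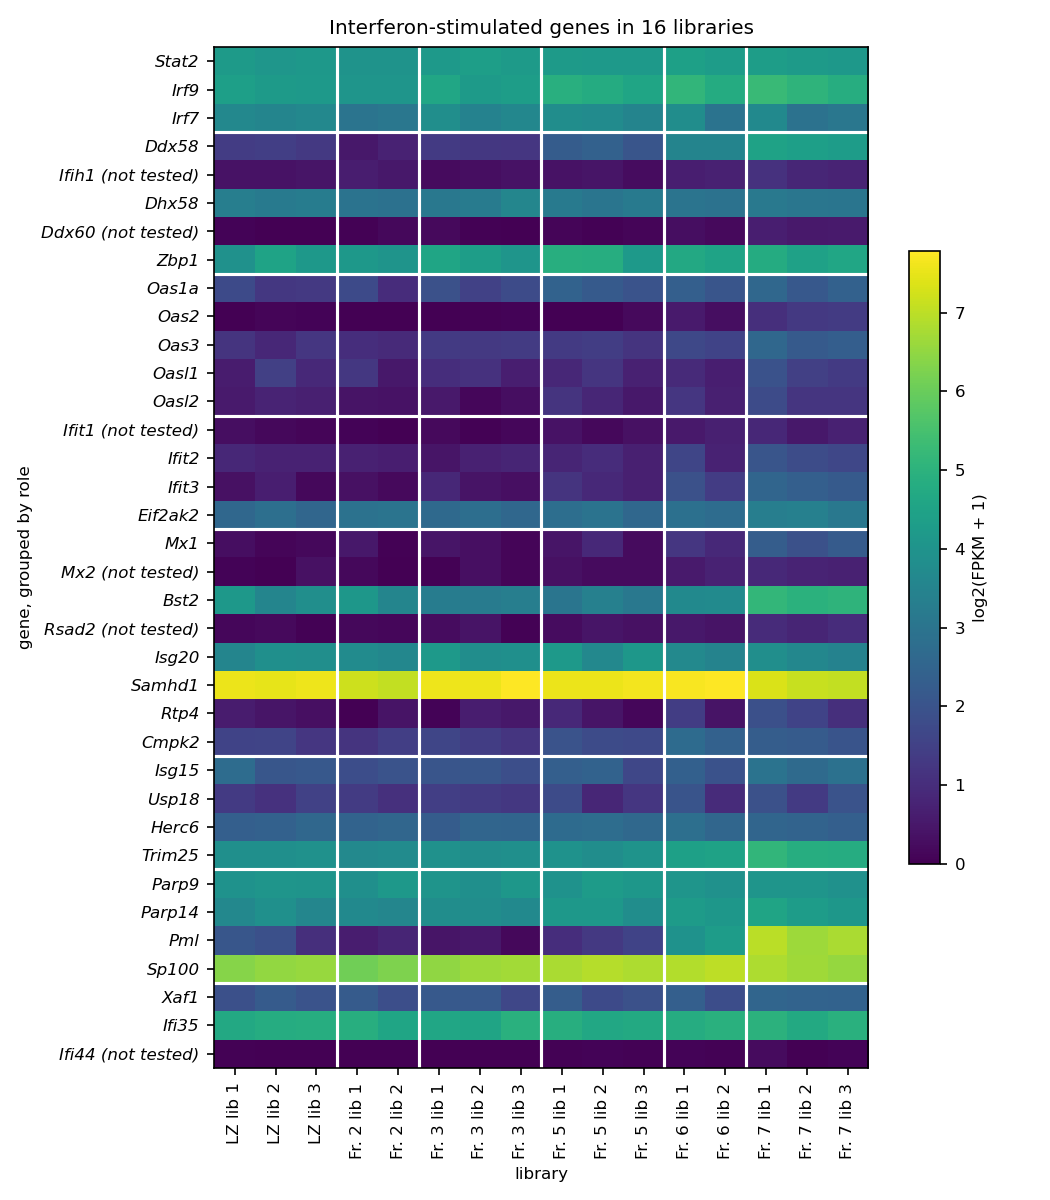
The 36 members (rows, grouped by role) in the 16 libraries (columns, grouped by gate), coloured by log2(FPKM + 1). Samhd1 and Sp100 were high in every library, whereas Pml and Ddx58 were low in LZ and Fractions 2 and 3 and highest in Fraction 7.

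Pml, the organiser of PML nuclear bodies, had the widest range of all members. It read 3.22, 2.73 and 1.08 FPKM in LZ, 0.527 and 0.737 in Fraction 2, and 0.364, 0.423 and 0.134 in Fraction 3. It read 1.04, 1.44 and 1.99 in Fraction 5, 14.8 and 18.6 in Fraction 6, and 124, 98.2 and 109 in Fraction 7. Among Fractions 3, 5, 6 and 7 no library of one group overlapped with those of the next. The log2 change was 0.92 (SE 0.23, adjusted p = 0.00792 by limma) for Fraction 5 against Fraction 3. From Fraction 5 to Fraction 6 it was 2.84 (SE 0.25, adjusted p = 4.74e-06), an 11.2-fold ratio of mean FPKM. From Fraction 6 to Fraction 7 it was 2.66 (SE 0.25, adjusted p = 7.1e-06), a 6.62-fold ratio. Fraction 7 thus stood 74.2-fold above Fraction 5 and 47.1-fold above LZ. Its call for Fraction 5 against Fraction 3 was lost without the 4 libraries that held the most neutrophil marker RNA in their groups, an alternative added after seeing the data. The log2 change was then 0.82 (adjusted p = 0.0843), with fewer libraries in each group.

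Ddx58 encodes RIG-I, the cytosolic sensor of viral RNA with a free triphosphate end. It read 1.63, 1.73 and 1.44 FPKM in LZ, 0.431 and 0.677 in Fraction 2 and 1.495, 1.41 and 1.36 in Fraction 3. In Fraction 5 it read 3.81, 4.35 and 3.12, in Fraction 6 10.4 in both libraries, and in Fraction 7 21.3, 19.9 and 18.9. Fraction 2 lay lowest, LZ overlapped with Fraction 3, and Fractions 5, 6 and 7 followed in that order with no overlap. It was the only member called in all 6 comparisons. Relative to Fraction 3 it fell by 0.65 in Fraction 2 on the log2 scale (SE 0.12, adjusted p = 0.00345 by limma) and rose by 0.97 in Fraction 5 (SE 0.11, adjusted p = 3.1e-05). Each later step rose again, by 1.27 (SE 0.12, adjusted p = 6.33e-06) to Fraction 6 and by 0.88 (SE 0.12, adjusted p = 0.000117) to Fraction 7. The ratio of mean FPKM was 12.6 for Fraction 7 against LZ. The dot plots of single members show the values of each library.

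**Figure D2:**
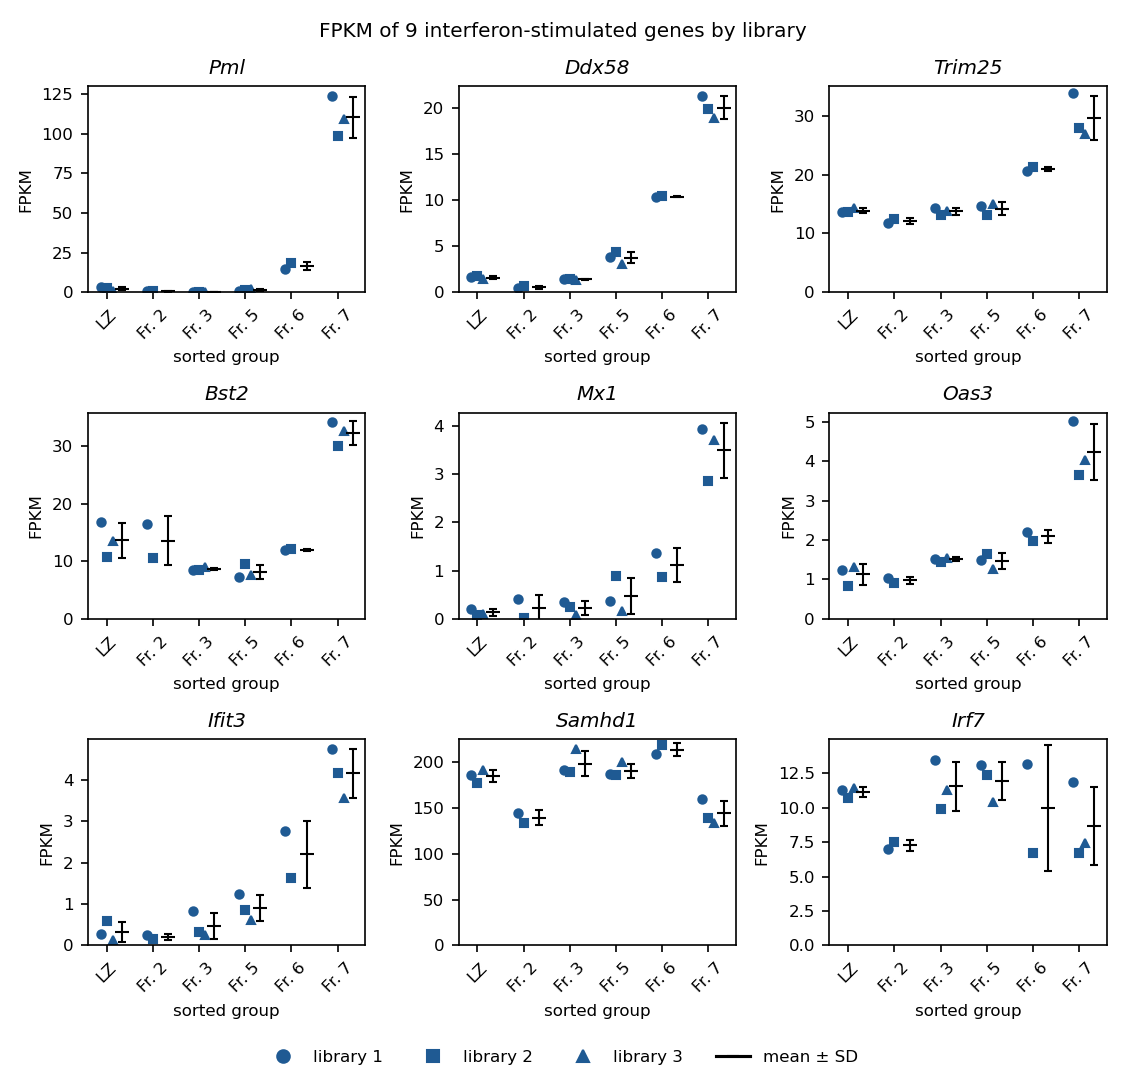
FPKM of single members (1 panel each, linear axis) in the 6 groups, with 1 marker per library (circle, square and triangle for libraries 1, 2 and 3) and bars at the group mean ± SD. Pml and Ddx58 climb from Fraction 3 through Fractions 5 and 6 to Fraction 7, whereas Samhd1 is lower in Fractions 2 and 7 than in the others.

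Fraction 2 against Fraction 3 compares light zone cells with high and low CD69. Of the 30 members tested, 5 were lower and 1 higher in Fraction 2, beside 6.45% lower and 9.17% higher of all genes tested. The median log2 change of the members was -0.14 (-0.23 without Fraction 2 library 1 and -0.10 without Fraction 3 library 1), and that of all genes 0.04. Samhd1 read 145 and 134 FPKM in Fraction 2 and 192, 189.5 and 214 in Fraction 3, with no overlap, and fell by 0.50 (SE 0.08, adjusted p = 0.00208 by limma). Sp100 read 67.4 and 77.2 against 88.6, 99.0 and 104, and fell by 0.42 (SE 0.10, adjusted p = 0.0119). Both are among the most abundant members. Stat2, the STAT of ISGF3, read 15.1 and 14.9 against 17.5, 19.7 and 17.8 (log2 -0.27, adjusted p = 0.0298). Dhx58, which encodes LGP2, a regulator of RIG-I-like sensing, read 6.75 and 6.42 against 7.71, 8.43 and 11.0 (log2 -0.39, adjusted p = 0.0377). Bst2, or tetherin, which holds budding virions at the membrane, went the other way, with 16.5 and 10.6 against 8.53, 8.50 and 8.95 (log2 0.56, adjusted p = 0.0482).

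The groups did not overlap for any of these members, but the calls rested on few libraries. Without Fraction 2 library 1, the calls of Sp100 (adjusted p = 0.127), Stat2 (0.118), Dhx58 (0.118) and Bst2 (0.431) were lost, and 2 members stayed called. The counts were 3 without Fraction 3 library 2 and 3 without Fraction 3 library 3. Without Fraction 3 library 2 the adjusted p was 0.0931 for Stat2, 0.0503 for Dhx58 and 0.0968 for Bst2, and without its library 3 it was 0.0590, 0.117 and 0.0937. Without Fraction 3 library 1 Bst2 was at 0.0966, and without Fraction 2 library 2 Stat2 was at 0.143 and Dhx58 at 0.181. The calls of Ddx58 and Samhd1 held without each of the 5 libraries. Irf9 and Irf7, the other transcription factors of the list, had log2 changes of -0.33 and -0.59 in the same direction and did not pass (adjusted p = 0.147 and 0.110).

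Fraction 5 against Fraction 3 compares pro-memory cells with light zone cells under selection. Only Ddx58 and Pml were called among the 30 members, both higher, beside 9.99% higher and 19.5% lower of all genes. The 6.67% of members called compares with 29.5% of all genes called in either direction. These counts depended on the scaling: 5 members were called after quantile normalization and 6 after median-ratio scaling, and the share of called genes that were higher went from 33.9% to 50.2% and 46.5%. The median log2 change was 0.11 over the members and -0.03 over all genes. The members' median was 0.17 without Fraction 3 library 2, 0.07 without Fraction 5 library 1 and 0.22 without Fraction 5 library 3. Without Fraction 3 library 1 the count was 4 and without Fraction 5 library 3 it was 5, and it was 1, Ddx58, without the 4 libraries with the most neutrophil marker RNA. Fraction 5 library 3 was the lowest of its group in Irf9, the DNA-binding subunit of ISGF3, which read 29.0, 26.3 and 22.8 FPKM there and 23.4, 17.9 and 19.0 in Fraction 3. That difference did not pass (log2 0.36, adjusted p = 0.0547).

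Fraction 6 against Fraction 5 compares pre-memory with pro-memory cells. Besides Pml and Ddx58, the members called were Trim25, Cmpk2 and Ifit3, giving 5 higher and 0 lower of 30 (7.07% higher and 10.4% lower of all genes). The median log2 change was 0.15 over the members and near 0 over all genes. It rested on single libraries, since the members' median was -0.01 without Fraction 6 library 1, 0.30 without Fraction 6 library 2 and 0.24 without Fraction 5 library 1. Trim25, the ubiquitin ligase that activates RIG-I, read 20.7 and 21.2 FPKM in Fraction 6 and 14.6, 13.1 and 15.0 in Fraction 5, and rose by 0.53 (SE 0.10, adjusted p = 0.00141 by limma). Cmpk2, a mitochondrial nucleotide kinase, read 5.57 and 4.32 against 2.93, 2.399 and 2.28, and rose by 0.75 (SE 0.17, adjusted p = 0.00776). Unlike the other members called in this comparison, its mean in Fraction 7 (3.56 FPKM ± 0.468 SD, n = 3) lay below that in Fraction 6 (4.95 ± 0.879, n = 2). Ifit3, of the family that binds foreign RNA ends, read 2.77 and 1.63 against 1.24, 0.854 and 0.606 (log2 0.75, adjusted p = 0.0309). Without Fraction 6 library 1 the calls of Ifit3 (adjusted p = 0.306) and Cmpk2 (0.113) were lost and the count was 3. Ifit3 was also lost without Fraction 5 library 2 (0.0735) or library 3 (0.0984).

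Fraction 7, mature memory, was compared with Fraction 6, Fraction 5 and LZ. Against Fraction 6, 10 of the 30 tested were higher, 1 was lower and 19 were not called, beside 7.37% higher and 13.9% lower of all genes. Among the 26 that passed the filter without Fraction 7, 7 were higher and 1 lower. The median log2 change was 0.16 over the 26, 0.34 over the 30 and -0.05 over all genes. The median over the 30 was 0.09 without Fraction 6 library 2 and 0.21 without Fraction 7 library 1. With a filter of 5 FPKM fewer members were tested, and 5 of those called were left out. The median over that smaller set was 0.09, so it is not a change of the same genes. Against Fraction 5, 14 were higher and 1 lower (10 and 1 of the 26), beside 19.1% higher and 28.5% lower of all genes (47.6% in either direction). Against LZ, 17 were higher and 1 lower (13 and 1 of the 26), beside 24.1% higher and 38.0% lower of all genes (62.1% in either direction), so that the share of members called was near that of all genes while the directions differed. The medians over the 26 were 0.335 against Fraction 5 and 0.55 against LZ, and those over all genes -0.05 and -0.10. The shares and medians of all genes cover every gene tested, including those that passed the filter only through Fraction 7, unlike the 26. Over the 30 the members' medians were 0.48 and 0.60. With a filter of 5 FPKM they were 0.08 and 0.315 over the members still tested, which lack 8 and 10 of those called. These 3 comparisons use the same Fraction 7 libraries and so are not independent of each other. The plot of log2 changes shows the 4 comparisons between neighbouring gates. In its Fraction 7 panel the points of Oas2, Ifit2, Mx1 and Rtp4 are a description, since the filter let these genes in through Fraction 7.

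**Figure D3:**
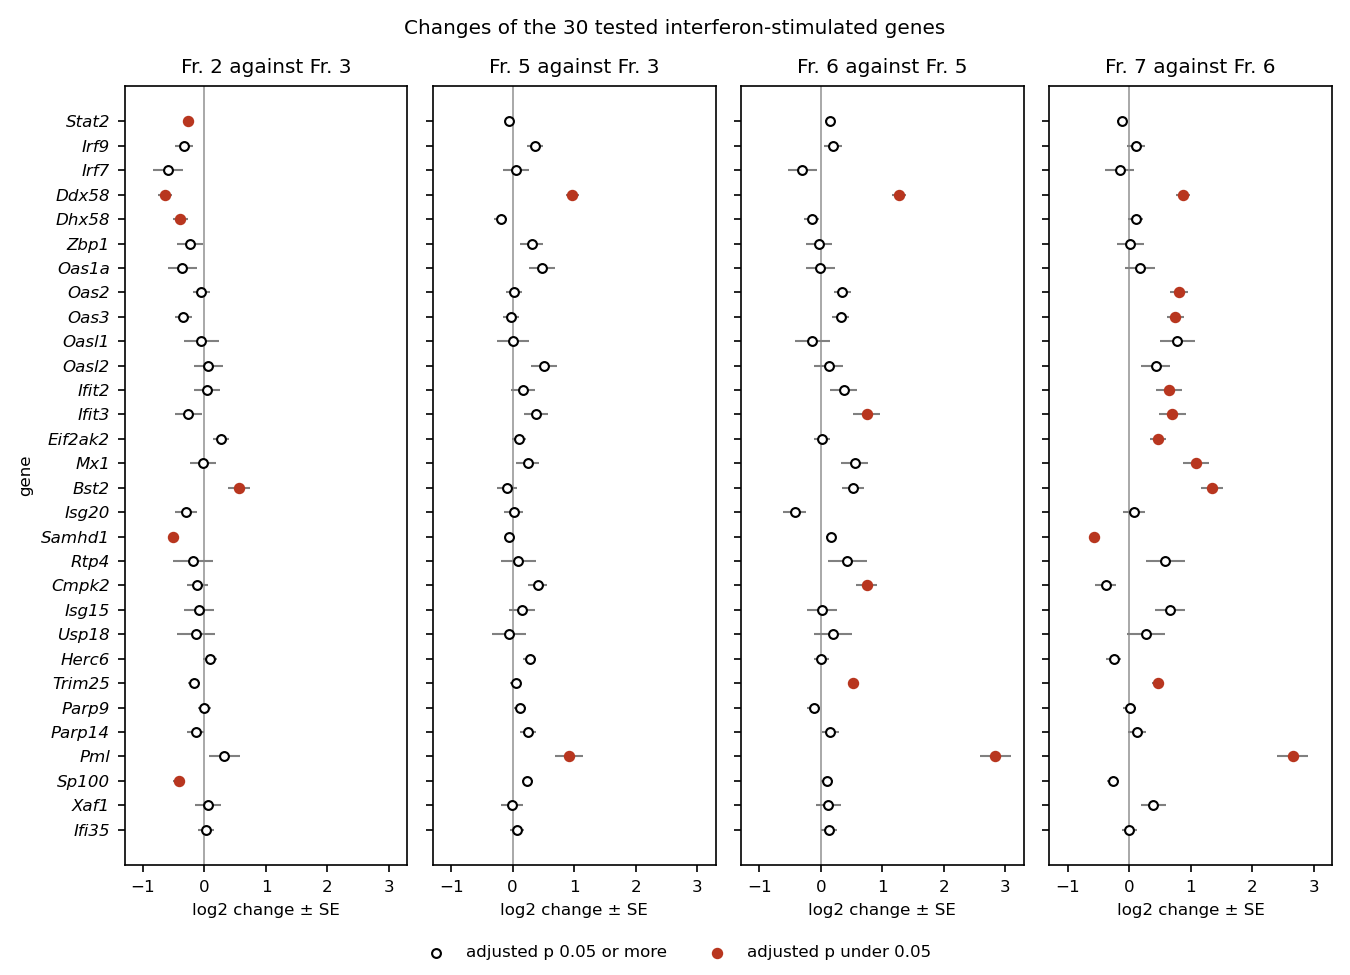
Log2 change ± SE of the tested members (rows) in 4 comparisons (panels), on the log2(FPKM + 1) scale, with filled red points for an adjusted p under 0.05 and open points for the others. Pml has the largest change in Fraction 6 against Fraction 5 (2.84) and in Fraction 7 against Fraction 6 (2.66), and Samhd1 is the one member called lower in Fraction 7 against Fraction 6.

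Bst2 changed late. It read 16.8, 10.6 and 13.4 FPKM in LZ, 7.20, 9.46 and 7.63 in Fraction 5, 11.9 and 12.1 in Fraction 6, and 34.2, 30.03 and 32.6 in Fraction 7. Every Fraction 7 library stood above every other library, whereas the others overlapped in part. The log2 change was 1.35 (SE 0.18, adjusted p = 0.000107 by limma) against Fraction 6, 1.88 (SE 0.16, adjusted p = 3.74e-07) against Fraction 5 and 1.21 (SE 0.16, adjusted p = 1.63e-05) against LZ. Its rise from Fraction 5 to Fraction 6 did not pass (log2 0.52, adjusted p = 0.0590). Samhd1 ran opposite, with 209 and 219 FPKM in Fraction 6 and 159.5, 139.7 and 134 in Fraction 7, and fell by 0.57 (SE 0.08, adjusted p = 0.000231). It also fell by 0.40 against Fraction 5 (adjusted p = 0.00044). Against LZ (186, 178 and 191 FPKM) it fell by 0.36 (adjusted p = 0.000722), a call lost with quantile normalization (log2 -0.04, adjusted p = 0.488) and without Fraction 7 libraries 2 and 3 (log2 -0.21, adjusted p = 0.0660).

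The 2'-5' oligoadenylate synthetases make the messenger that activates RNase L. Oas3 read 5.02, 3.64 and 4.03 FPKM in Fraction 7, 2.21 and 1.97 in Fraction 6, 1.49, 1.65 and 1.27 in Fraction 5, and 1.23, 0.829 and 1.33 in LZ. Fraction 7 was above all others, and the rise was 0.75 against Fraction 6 (SE 0.14, adjusted p = 0.00156 by limma) and 1.30 against LZ (SE 0.12, adjusted p = 6.95e-07). Oas1a read 5.01, 3.42 and 4.37 in Fraction 7 and 2.39, 1.40 and 1.46 in LZ, and rose by 0.95 (adjusted p = 0.00147) with no overlap. Its exons share 57.6% of their 50-base words with those of Oas1g, so its value is uncertain. Oas2 read 1.08, 1.45 and 1.56 FPKM in Fraction 7 and 0.466 and 0.221 in Fraction 6, and no library of the other groups exceeded 0.142. It is one of the members that passed only through Fraction 7. Oasl2, of the OAS-like branch, read 2.44, 1.30 and 1.30 in Fraction 7 and rose by 0.715 against LZ (0.478, 0.725 and 0.616 FPKM; adjusted p = 0.00855). Its call against Fraction 5 (log2 0.56, adjusted p = 0.0399) was lost without Fraction 7 library 1 (0.169), Fraction 5 library 2 (0.0841) or Fraction 5 library 3 (0.164). Oasl1 was not called in any comparison, with 2.87, 1.78 and 1.501 in Fraction 7 and 0.510, 1.79 and 0.868 in LZ.

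The IFIT proteins and PKR (Eif2ak2) act on viral RNA and on translation. Ifit3 read 4.75, 4.16 and 3.57 FPKM in Fraction 7 and 0.275, 0.581 and 0.127 in LZ, a rise of 1.97 (SE 0.20, adjusted p = 1.03e-06 by limma). It shares 51.2% of its 50-base words with Ifit3b. Ifit2 read 3.11, 2.50 and 2.18 in Fraction 7 and 0.823, 0.684 and 0.668 in LZ, and passed the filter only through Fraction 7. Eif2ak2 read 8.97, 9.58 and 7.59 in Fraction 7 and 5.09, 6.21 and 4.99 in LZ, a rise of 0.59 (SE 0.12, adjusted p = 0.000484). Neither Ifit3 nor Eif2ak2 overlapped between Fraction 7 and LZ. Against Fraction 6 both were called (Ifit3 2.77 and 1.63, Eif2ak2 6.26 and 5.69 FPKM there, adjusted p = 0.0349 and 0.0181 by limma), but on few libraries. Without Fraction 6 library 2 the adjusted p was 0.342 for Ifit3 and 0.148 for Eif2ak2. Without Fraction 7 library 2 it was 0.0732 and 0.0629. Ifit3 was also lost without Fraction 7 library 1 (0.0897), and Eif2ak2 without Fraction 6 library 1 (0.0548). Ifit2 read 2.09 and 0.680 in Fraction 6.

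Mx1, of the Mx GTPase family, read 3.93, 2.85 and 3.70 FPKM in Fraction 7, 1.37 and 0.873 in Fraction 6, 0.361, 0.878 and 0.172 in Fraction 5 and 0.211, 0.0752 and 0.111 in LZ. Fraction 7 stood above every other library. Like Rtp4, it passed the filter only through Fraction 7. Rtp4, a receptor transporter that also restricts viruses, read 2.73, 1.98 and 1.05 in Fraction 7 and 0.511, 0.365 and 0.253 in LZ. Its libraries in Fraction 6 were far apart, at 1.66 and 0.338, and overlapped with Fraction 7. Of the untested members, Rsad2 (viperin) read 0.932, 0.757 and 0.980 in Fraction 7 and at most 0.406 elsewhere. Mx2 read 0.877, 0.700 and 0.651 in Fraction 7 and at most 0.678 elsewhere. Isg20, an exonuclease, was not called in any comparison and lay between 10.0 and 17.7.

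ISG15 is a ubiquitin-like protein that is attached to others by an interferon-induced enzyme chain and removed by USP18. Isg15 read 6.77, 5.40 and 6.46 FPKM in Fraction 7, 4.20 and 2.93 in Fraction 6, 4.12, 4.49 and 2.14 in Fraction 5 and 5.78, 3.28 and 3.42 in LZ. Fraction 7 overlapped with LZ only through LZ library 1, and the rise of 0.51 did not pass (adjusted p = 0.0513 by limma). Against Fraction 5 it rose by 0.69 (adjusted p = 0.0165), a call lost without Fraction 5 library 3 (0.0806) or Fraction 7 library 1 (0.0517). Usp18 read 2.82, 1.52 and 3.00 in Fraction 7 and 1.47, 1.16 and 1.82 in LZ, with overlap, and Herc6, the mouse ISG15 ligase, lay between 3.83 and 6.21 in all libraries. Neither was called in any comparison. Trim25 read 33.9, 27.9 and 27.0 in Fraction 7 and 13.6, 13.7 and 14.3 in LZ, and rose by 1.04 (SE 0.09, adjusted p = 1.47e-07). It also rose by 0.47 against Fraction 6 (SE 0.10, adjusted p = 0.00287), so that it increased at both steps from Fraction 5.

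Among the pathway's own factors, Irf9 read 37.5, 32.4 and 27.6 FPKM in Fraction 7 and 20.2, 17.9 and 17.4 in LZ, and rose by 0.77 (SE 0.13, adjusted p = 0.000166 by limma). Its changes against Fractions 5 and 6 did not pass (adjusted p = 0.0716 and 0.663). Stat2 lay between 14.9 and 20.3 in all libraries and Irf7, the factor that amplifies interferon synthesis, between 6.68 and 13.5. Irf7 read 11.9, 6.68 and 7.47 in Fraction 7 and 11.3, 10.7 and 11.4 in LZ, and the change of -0.36 did not pass (adjusted p = 0.152). Of the PARP genes, Parp14 read 22.4, 18.5 and 16.5 in Fraction 7 and 11.5, 14.1 and 10.9 in LZ and rose by 0.61 (SE 0.13, adjusted p = 0.000881), whereas Parp9 lay between 13.5 and 18.1 and was not called. Cmpk2 rose by 0.72 against LZ (adjusted p = 0.00104). Xaf1, a pro-apoptotic factor, read 4.86, 4.62 and 4.50 in Fraction 7 and 2.74, 3.66 and 3.00 in LZ. Its calls against LZ (log2 0.46, adjusted p = 0.0457) and Fraction 5 (log2 0.52, adjusted p = 0.0345) were each lost without any 1 Fraction 7 library (adjusted p 0.0637 to 0.102). They were also lost without LZ library 1 (0.134) or 3 (0.1004), and without Fraction 5 library 2 (0.138) or 3 (0.0854). Zbp1, a sensor of Z-form nucleic acid (14.2 to 28.2), and Ifi35 (22.4 to 31.1) were not called in any comparison. Oasl1, Isg20, Usp18, Herc6, Parp9 and Irf7 complete the 8 tested members with no call.

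RNA of other cells differed between the libraries too, and beyond the fits given here its part in these results was not tested. Sdc1, the gene of CD138 on plasma cells, read 4.44 and 4.51 FPKM in Fraction 7 libraries 2 and 3, 0.502 in library 1 and at most 0.534 elsewhere. The 5 plasma cell markers summed to 102 FPKM in Fraction 7 library 1, to 408 and 401 in its libraries 2 and 3 and to 67.6 to 218 in the other groups, with none at 0 in Fraction 7. Without libraries 2 and 3, 1 Fraction 7 library was left. The members' median log2 change was then 0.54 against Fraction 5, 0.83 against LZ and 0.45 against Fraction 6. Over the 30 with all libraries these medians were 0.48, 0.60 and 0.335. Oas2 was no longer tested, and the medians include Ifit2, Mx1 and Rtp4, which passed the full filter only through Fraction 7. Medians over the 26 alone were not taken in this fit. Log2 changes against Fraction 6 were 0.87 for Ifit3 and 0.52 for Eif2ak2 in that fit, beside 0.70 and 0.47 with all libraries. These values rest on 1 Fraction 7 library and do not show that a call holds. The 5 plasmacytoid dendritic cell markers summed to 56.7 to 107.5 in Fraction 7 and to 25.8 to 31.8 elsewhere. Each of the 5 had its highest group mean in Fraction 7. Ly6c2 read 16.1, 59.8 and 67.9 there, and the mean of Tcf4 was 37.7 there and 27.8 to 31.3 elsewhere. The defining marker Siglech read 0.160, 0.6125 and 0.986 in Fraction 7 and at most 0.740 elsewhere. Ccr9 was at most 0.137 and Klk1 at most 0.202 in any library, both in Fraction 7 library 3. The 8 macrophage and monocyte markers summed to 21.5 to 31.0 in Fraction 7 and to 6.82 to 15.97 elsewhere. Itgam read 12.8, 8.22 and 12.5 in Fraction 7. Adgre1 read 1.17 to 2.46 in Fraction 7, 1.06 and 1.41 in Fraction 6 and at most 0.254 elsewhere. In LZ, Fraction 6 and Fraction 7 the means were 0.053, 0.241 and 0.317 for Csf1r and 1.22, 3.39 and 2.15 for Lyz2. Those of Cd68 went the other way, at 12.0, 10.0 and 9.31. Fcgr1, C1qa and C1qb were at most 0.108, 0.404 and 0.146 in any library and at 0 in every LZ, Fraction 2 and Fraction 6 library. The 5 neutrophil markers found summed to 0 to 37.1, were highest in LZ library 2, Fraction 3 library 3, Fraction 5 library 2 and Fraction 7 library 3 within their groups of 3, and reached 12.4 in Fraction 6 library 1. Without those 4 libraries of groups of 3, 8 of the 10 higher calls of Fraction 7 held against Fraction 6, 12 of the 14 against Fraction 5 and 17 of the 17 against LZ. Those counts include calls among Oas2, Ifit2, Mx1 and Rtp4, which passed the filter only through Fraction 7, and are a description. T cell and natural killer cell markers summed to at most 3.03 and 1.69.

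The number in the library labels also moved with some members. In the 4 groups with 3 libraries, library 3 was the lowest each time for Cmpk2, Ddx58, Eif2ak2, Ifit3 and Parp14, which is 16.7% of the 30 members beside 3.31% of all genes tested. No member was lowest each time in library 1 or library 2 (1.53% and 2.99% of all genes). What the number stands for is not given. Without the libraries numbered 3, an alternative added after seeing the data, 2 members were called in Fraction 2 against Fraction 3 (6 with them) and 2 in Fraction 5 against Fraction 3 (2 with them). In Fraction 6 against Fraction 5 the count was 4, and in Fraction 7 it was 10 against Fraction 6, 12 against Fraction 5 and 18 against LZ. The Fraction 7 counts include members that passed the filter only through Fraction 7.

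The rest of the interferon pathway was followed in a list of 113 other genes, of which 112 were found and 94 tested. Interferon transcripts themselves were near absent: the 13 genes for type I, II and III interferons had a highest value of 0.615 FPKM (Ifnk) in any library, Ifnb1 was at most 0.134 and Ifng at most 0.0643. Of the 94 genes, 57 were higher and 10 lower in Fraction 7 than in LZ, 46 and 7 against Fraction 5, and 28 and 8 against Fraction 6. From Fraction 5 to Fraction 6, 25 were higher and 2 lower, from Fraction 3 to Fraction 5, 26 and 1, and in Fraction 2 against Fraction 3, 4 and 7. The shares of all genes called are those given above for each comparison. The filter for these genes also used the Fraction 7 libraries. Pathway genes that passed only through Fraction 7 were not separated, so the Fraction 7 counts here and by role below are a description.

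Among the receptors, 5 of 6 were higher in Fraction 7 than in LZ and 0 lower (1 lower after quantile normalization). Ifnar1, the first IFNAR chain, read 14.5, 16.8 and 19.8 FPKM in Fraction 7 and 7.97, 8.39 and 9.48 in LZ (log2 0.90, adjusted p = 3.41e-06 by limma). Ifnar2 read 13.7, 14.2 and 14.7 against 7.19, 6.40 and 5.11 (log2 1.08, adjusted p = 0.000115). Il10rb, shared by interferon-lambda and IL-10 receptors, rose by 1.20 (adjusted p = 1.12e-07), Ifngr2 by 1.02 and Ifngr1 by 0.44. The kinase gene Tyk2 was called (log2 0.24, adjusted p = 0.0151), a call lost without LZ library 1 (0.0549) or Fraction 7 libraries 2 and 3 (0.0561). Negative regulators were mixed, with 2 higher and 4 lower of 7. Socs1, an inhibitor of JAK kinases, read 18.6, 10.1 and 10.2 against 41.2, 29.4 and 27.3 and fell by 1.30 (SE 0.25, adjusted p = 0.000532), a call lost without Fraction 7 libraries 2 and 3 (0.0682). Cish, of the same family, rose by 1.15. After quantile normalization 2 were higher and 1 lower, and after median-ratio scaling 2 and 2.

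Among other IRF factors, 4 of 7 were higher and 1 lower in Fraction 7 than in LZ (6 and 0 after quantile normalization). Irf4, which also drives plasma cell fate, read 19.5, 20.6 and 21.4 FPKM against 8.80, 7.14 and 6.05 and rose by 1.38 (SE 0.11, adjusted p = 7.42e-08 by limma). Irf8, a GC factor, read 246.5, 228 and 207 against 303, 260.3 and 288, and fell by 0.32 (adjusted p = 0.00161). That call was lost without Fraction 7 libraries 2 and 3 (adjusted p = 0.0834) and its direction turned with quantile normalization (log2 0.05, adjusted p = 0.545). Of the sensors, adaptors and kinases upstream of interferon, 8 of 12 were higher and 1, Myd88, lower (9 and 0 under both other scalings). Tlr7, the endosomal sensor of single-stranded RNA, read 20.3, 16.4 and 16.5 in Fraction 7, 5.12 and 5.38 in Fraction 6, 0.854, 0.952 and 0.356 in Fraction 5 and 1.40, 0.917 and 0.510 in LZ. Its groups from Fraction 5 to 7 did not overlap, and it rose by 1.88 to Fraction 6 (SE 0.19, adjusted p = 1.67e-05) and by 1.58 to Fraction 7 (SE 0.19, adjusted p = 6.28e-05). Unc93b1, which carries such receptors to endosomes, rose by 0.73 against LZ, Tmem173, which encodes STING, by 1.10, and the kinase Ikbke by 1.31, each with an adjusted p of at most 2.51e-07.

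The IFI200 genes, whose products bind DNA in nucleus and cytosol, rose together, with 6 of 6 tested higher in Fraction 7 than in LZ under each of the 3 scalings. Ifi203 read 8.51, 8.49 and 8.21 FPKM in LZ, 5.82, 6.63 and 5.16 in Fraction 3, 12.2, 13.7 and 10.1 in Fraction 5, 43.0 and 48.1 in Fraction 6 and 102, 92.2 and 94.7 in Fraction 7. It climbed without overlap from Fraction 3 on, as Pml and Ddx58 did, by 0.91, 1.85 and 1.065 on the log2 scale (adjusted p = 3.75e-05, 2.69e-07 and 2.19e-05 by limma). Mnda, Ifi205 and Ifi204 were 11.0, 11.3 and 12.5 times as high in Fraction 7 as in LZ. Of the GTPases best known as targets of interferon-gamma, 10 of 12 were higher and 0 lower. Gbp7 read 7.53, 6.54 and 4.47 against 0.131, 0.545 and 0.0977 (log2 2.51, SE 0.18, adjusted p = 4.72e-08 by limma). It was under 1 FPKM in every LZ library and may have passed the filter only through Fraction 7, so its test is a description. Irgm1 read 39.5, 31.6 and 28.4 against 6.93, 6.27 and 3.33 (log2 2.43, SE 0.31, adjusted p = 1.24e-05 by limma). The plot of pathway genes shows these by library.

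**Figure D4:**
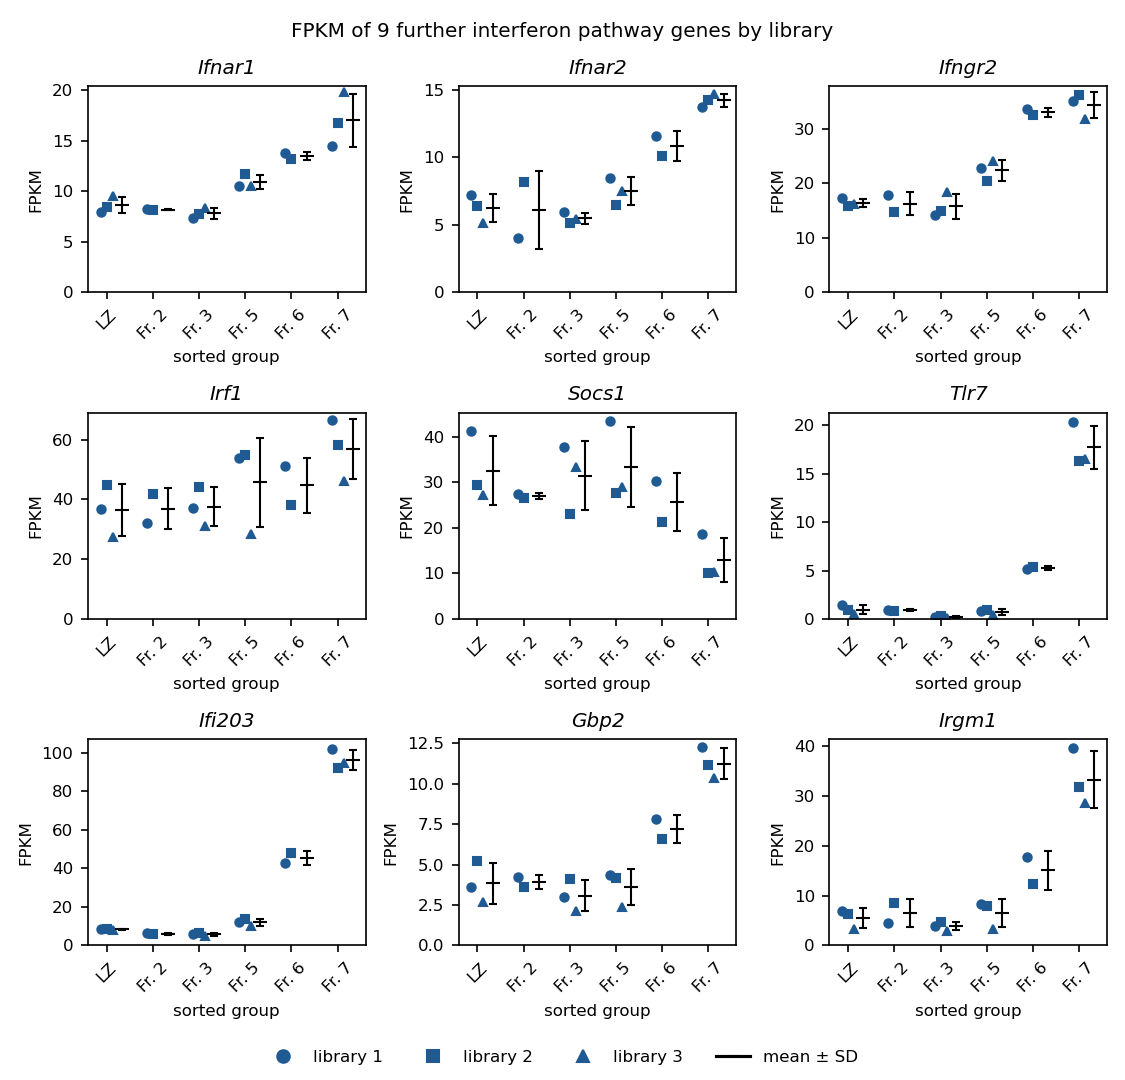
FPKM of single genes of the wider interferon pathway (1 panel each, linear axis) in the 6 groups, with 1 marker per library (circle, square and triangle for libraries 1, 2 and 3) and bars at the group mean ± SD. Tlr7 and Ifi203 are highest in all 3 Fraction 7 libraries, and Socs1 is lowest there.

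Antigen processing genes split, with 3 higher and 3 lower of 8 in Fraction 7 against LZ (5 and 2 after quantile normalization, 4 and 2 after median-ratio scaling). B2m, the light chain of MHC class I, read 1694, 1576 and 1507 FPKM against 741, 942 and 722 and rose by 1.00 (SE 0.13, adjusted p = 1.07e-05 by limma). Psmb8, an immunoproteasome subunit, read 270.1, 247 and 226 against 405, 377 and 380.2 and fell by 0.65 (SE 0.07, adjusted p = 1.12e-06), and Psmb9 fell by 0.52. Of 32 other interferon-induced genes, 18 were higher and 1, Daxx, lower (23 and 0, and 26 and 0, under those scalings). Shisa5, which takes part in cell death at the endoplasmic reticulum, stepped up at each gate, with a mean of 138 FPKM ± 5.81 (SD, n = 3) in Fraction 3, 301.5 ± 11.2 in Fraction 5 (n = 3), 544 ± 1.67 in Fraction 6 (n = 2) and 699.7 ± 90.3 in Fraction 7 (n = 3). Every step was called (adjusted p = 2.68e-06, 2.12e-05 and 0.0127), the last lost without Fraction 6 library 1 (0.0718) or 2 (0.0747). Trim34a rose by 1.68 and Tdrd7 by 2.102 against LZ.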

How the data were processed

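RNA sequencing was done on 16 libraries in 6 groups. The deposited values are FPKM per gene, made by the authors with TopHat2 2.0.8 and Cufflinks 2.1.1 on mm9, per the submitters' processing notes. The annotation, read numbers and filters are not given in the sources used here. The library kit named in the labels' protocols does not mark the strand, so reads of opposite-strand neighbours (Parp9 with Dtx3l, Dhx58 with Dhx58os) are not separated. Some exons also overlap with genes on the same strand. These are Irf9 with Rnf31 (123 bases), Herc6 with Gm45193 (1269), Rtp4 with Gm45338 (296), Parp14 with Gm49730 (110) and Sp100 with n-R5s215 (104). The effect of these overlaps on the values was not tested. The table was used as deposited, leaving out 1 row without a gene name.

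Values were set to log2(FPKM + 1). The filter kept the 11266 genes that reached 1 FPKM in 2 or more libraries. limma 3.58.1 in R 4.3.3 fitted 6 group means over all 16 libraries with a variance trend, for 6 comparisons. P-values were adjusted by Benjamini-Hochberg over all genes within a comparison, with a threshold of 0.05, and the fit was tested on simulated data. The members, roles and other lists were chosen with earlier results of these data known. Per-library values are given for members called in at least 1 comparison, and ranges or values for the others. Of the pathway lists, counts by role and up to 4 called genes per role by smallest adjusted p are named. Ifngr1, Myd88, Daxx and the interferon genes fall outside that rule and were named after their values were seen. As alternatives, the fit was repeated with each library left out, with the replicate number as a block, on only the 2 groups compared, with no filter or a filter of 5 FPKM, with a pseudocount of 0.1, and after median-ratio scaling or quantile normalization. Added after seeing the data were fits without Fraction 7 libraries 2 and 3, without the 4 libraries highest in neutrophil markers, and without libraries numbered 3. Exon overlap and shared 50-base words were read from a GRCm38 annotation, and promoters from RefSeq GRCm38.p6, whose coordinates were not mixed with mm9. Pathway genes found under older symbols include Gm4902 and I830012O16Rik. Tables and figures used matplotlib 3.10.9, numpy 2.4.6 and pandas 2.3.3 under Python 3.11.15. Some items are not reported here.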

Additional observations from a re-analysis of the deposited data

How the results depend on the processing

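Of 57 calls of members over the 6 comparisons, 40 held under every alternative that gave a value, 44 held without each single library, and no direction reversed. The 57 include Fraction 7 calls of Oas2, Ifit2, Mx1 and Rtp4, which the filter let in through Fraction 7. Their calls, here and in the Fraction 7 counts below, are a description and no sign of stability. The cause of the changes below was not tested, except that the filter of 5 FPKM tests fewer genes. For Fraction 5 against Fraction 3, 2 members were called, 5 after quantile normalization, 6 after median-ratio scaling and 1 without the 4 libraries highest in neutrophil markers, and 2 to 5 without each library. The filter of 5 FPKM gave 3 calls in Fraction 6 against Fraction 5, while Fraction 7 had 6 against Fraction 6, 7 against Fraction 5 and 8 against LZ. For Fraction 7 against Fraction 6, 7 were called with a pseudocount of 0.1 and 7 without Fraction 7 libraries 2 and 3. For Fraction 2 against Fraction 3, leaving out the 4 neutrophil-rich libraries gave 3 calls and leaving out libraries numbered 3 gave 2. Leaving out each library gave 2 to 5 for Fraction 2 against Fraction 3 (6 in all libraries), 3 to 7 in Fraction 6 against Fraction 5, and in Fraction 7 8 to 10 against Fraction 6, 12 to 18 against Fraction 5 and 17 to 20 against LZ. A group left with 1 library took its spread from the others.

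By the correlation over all genes the replicate numbers did not pair the samples: deviations of same-numbered libraries correlated at -0.184 to 0.124 (2 of 15 pairs over 0.1) and those of others at -0.147 to 0.183. Over the 30 members alone, 14 of the 15 same-numbered pairs correlated above 0 and 13 above 0.1, beside 7 and 6 of the 30 pairs of other numbers. Deviations were taken from group means and cancel out within a group, so a positive same-number value forces negative values among other numbers. Libraries also recur across comparisons. The pairs are thus not independent, and these counts are a description. With the replicate block, 6 members were called for Fraction 5 against Fraction 3 (2 without it) and 20 in Fraction 7 against Fraction 5 (15 without it), and the counts other than the first stayed within 1.5 times. Scaling moved the share of all called genes that were higher, from 58.7% to 45.4% (quantile) and 50.3% (median ratio) for Fraction 2 against Fraction 3. The same share moved from 33.9% to 50.2% and 46.5% in the Fraction 5 to Fraction 3 contrast. It moved from 34.7% to 45.1% and 49.0% for Fraction 7 against Fraction 6, from 40.1% to 48.9% and 52.6% against Fraction 5, and from 38.9% to 49.98% and 52.5% against LZ. The median of all genes for Fraction 7 against LZ moved from -0.10 to 0.015 and 0.05, and that of the members from 0.60 to 0.66 and 0.77. Of 221 calls of other pathway genes, 134 held under every alternative that gave a value and 87 were lost in at least 1. Genes that passed the filter only through Fraction 7 were not separated there, so these counts are a description and no sign of stability. FPKM keep no read numbers, so counting error at low values is unknown, and genes under 1 FPKM were not tested.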
